A study of Rattus norvegicus with 20 samples.

Results

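Genes for calcium entry, calcium stores and calcium pumps were followed in the rat mesenteric artery: Cacna1c, Cacna1d, Cacnb2, Stim1, Itpr1, Ryr2, Atp2a2, Pln, Atp2b1 and Atp2b4. Members were taken by name, as every probe on the array whose gene name equals one of these 10 names. This gave 16 of the 30367 distinct non-control probes, with 2 probes for each of 6 genes and 1 probe for each of the other four. A probe was tested if the scanner software had marked it well above background on every array of 1 or more groups, which held for 14 probes of 9 genes and for 18899 probes in all. Cacna1d and the second Ryr2 probe did not meet that condition.

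The study hybridised total RNA of whole mesenteric artery to 20 single-colour Agilent arrays of 60-base probes, 4 arrays in each of 5 groups. One normotensive strain, WKY/Izm, was either untreated or carried a clip on a renal artery, as the 2-kidney 1-clip form (2K1C) or the 1-kidney 1-clip form (1K1C). A protocol of 3 weeks is labelled for every WKY group, the untreated one included. The strains with inherited hypertension, SHR/Izm and its stroke-prone relative SHRSP/Izm, were untreated. No protocol time is labelled for SHR and SHRSP. Every animal is labelled 6 weeks of age, and the labels do not settle whether that is the age at operation or at sampling. They thus do not settle whether SHR and SHRSP were sampled at the same age as WKY. Each array of a group is labelled a biological replicate, without saying whether it holds 1 animal. The limma p-values set group differences against the spread between these samples, estimated from all 5 groups together. Clipping is the whole treatment named, no sham operation is described, and in the 1K1C form a kidney is also missing. The whole artery was used, so smooth muscle, endothelium, nerve and attached fat all contribute RNA.

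As background, contraction of arterial smooth muscle follows the free calcium in the cell. Calcium enters through voltage-gated L-type channels and through channels opened when the internal store runs low, and it is released from the sarcoplasmic reticulum through inositol trisphosphate receptors and ryanodine receptors. It is cleared by SERCA, which refills the store under the brake of phospholamban, and by the plasma membrane calcium pumps. These steps are long-standing subjects of hypertension research because vessel tone depends on them.

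The probes on which the results turn are shown by 30 of their 60 bases, 5′ to 3′, as the array files give them. The Ryr2 pair is shown because the probes sit end to end on chromosome 17 of the rn4 build (chr17:69544683-69544742 and chr17:69544738-69544797), yet one was detected and the other was not. The 5 bases that they share are in capitals.
Ryr2 A_64_P000023, last 30 bases: cggaaacagtatgaggaccagttaaATTAA
Ryr2 A_64_P091098, first 30 bases: ATTAAcatcgtaccttgattgtctctgaac

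The Itpr1 and Atp2b1 pairs are shown because each gene has 2 detected probes whose values can be set side by side, and Cacna1c, Cacnb2 and Pln because they followed the smooth muscle markers most closely. The Itpr1 probes lie at chr4:144029976-144030035 and chr4:144028709-144028768, the Atp2b1 probes at chr7:36600220-36600279 and chr7:36600030-36600089, all on rn4, and no annotation of that build was used here to place them in exons or untranslated regions. The first 30 bases of each are given without capitals.
Itpr1 A_64_P156632: ccgtaagcagagttctgaagcaagtcaagt
Itpr1 A_64_P119637: aagcagaaacaaagaattggccttctagga
Atp2b1 A_64_P012057: gcgttcttgtctccggacttcaacagaaga
Atp2b1 A_64_P036355: acaatgccgttgacagcgggatccacctta
Cacna1c A_44_P203145: ctgtcccacgagatatgcaaaagcaatgca
Cacnb2 A_44_P449819: gagccaaaggaagattattcacatgaacat
Pln A_64_P138859: tgtagctgcccgtttcctcagtgtggctca

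Levels are log2 of the processed signal relative to the 75th percentile of the array, so that 0 is that percentile and each unit is a doubling. The 75th percentile ran from 574.5 to 1193 signal units over the 20 arrays, and 66.45% to 71.68% of non-control spots on an array were well above background. The groups lay on 3 slides. Slide 1 held 2K1C, slide 2 untreated WKY and 1K1C, and slide 3 SHR and SHRSP, so that the differences of SHR, SHRSP and 2K1C from untreated WKY, and of 1K1C from 2K1C, cannot be told apart from the slide. Within slides 2 and 3 each group had a row of its own, and group and row cannot be told apart. The tissue label was checked on the 9 smooth muscle markers of a list of 10 that the array holds, and all 9 were tested. Their mean level ran from 2.71 to 3.64 in untreated WKY, 2.67 to 4.24 in 2K1C, 0.07 to 3.24 in 1K1C, 2.04 to 4.17 in SHR and 3.06 to 4.13 in SHRSP. The 1K1C replicate 2 stood apart at 0.07, and SHR replicate 1 was the next lowest at 2.04, with 1K1C replicate 1 close above it at 2.14.

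None of the 14 calcium probes changed by the adjusted test in any of 6 comparisons. The limma fit over all 18899 probes, two-sided with Benjamini-Hochberg adjustment at 0.05, called 0 of 14 in SHR against untreated WKY, where it called 1.72% of all probes, and 0 of 14 in SHRSP against untreated WKY, where it called 2.4%. With untreated WKY as the reference it called 0 of 14 in 2K1C and 0 of 14 in 1K1C, beside 0.0106% and 0% of all probes. It called 0 of 14 in SHRSP against SHR and in 1K1C against 2K1C, beside 0.36% and 0%. At an unadjusted p under 0.05 the counts were 1, 2, 0, 6, 0 and 5 of 14 in the same order, beside 13.9%, 16.8%, 21.9%, 9.03%, 3.61% and 21.1% of all probes. The lowest adjusted p of a calcium probe was 0.135, for Atp2b1 in 1K1C against 2K1C.

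In the 1K1C artery, 13 of 14 probes lay below untreated WKY, where 35% of all probes did, and the median difference of the 14 was -0.62 on the log2 scale against 0.10 over all probes. Against 2K1C, 13 of 14 lay lower as well, where 48.6% of all probes did, with a median of -0.55 against 0.01. Both comparisons use the same 1K1C arrays, and the 14 probes are of 9 genes, so the counts are not of independent members. The medians of the 14, here and without 2 arrays below, hold an Atp2b1 probe whose 2 spots disagreed on 1K1C replicate 1. It stood at -1.585 from untreated WKY and -1.362 from 2K1C. With the brighter spot kept, it stood at -0.446 and -0.223, still lower in both. The middle 2 of the 14 differences from untreated WKY were then -0.472 and -0.446, so the median of -0.62 overstates that shift. The middle 2 from 2K1C were then -0.547 and -0.544. The medians without 2 arrays were not recomputed with the brighter spot. Without 1K1C replicate 2 and SHR replicate 1, 10 of 14 lay below untreated WKY with a median of -0.30, where 36.6% of all probes did (median 0.08). Against 2K1C, 13 of 14 then lay lower with a median of -0.46, where 48.4% of all probes did (median 0.01). The arrays kept still include 1K1C replicate 1, with a smooth muscle marker mean of 2.14. The smooth muscle markers lay the same way, with 9 of 9 lower in 1K1C than in untreated WKY (median -0.93) and 0 of 9 called. Without the 2 arrays 6 of 9 were lower, with a median of -0.28 and 0 of 9 called. Against 2K1C, with all arrays, 9 of 9 were lower (median -1.43) and 0 called. White adipocyte markers lay the other way. In 1K1C 8 of 8 were higher than in untreated WKY (median 0.45) and 8 of 8 higher than in 2K1C (median 1.31), with 0 called. The part of these markers in the result was not tested. The 2 arrays also moved the SHR values. With them, 5 of 14 calcium probes lay below untreated WKY in SHR (median 0.06), where 47.6% of all probes did, and 8 of 14 lay lower in SHRSP than in SHR (median -0.03), where 52.2% did. Without them, 1 of 14 lay below untreated WKY in SHR (median 0.32), where 49.2% of all probes did, and 13 of 14 lay lower in SHRSP than in SHR (median -0.24), where 50.5% did. The smooth muscle markers in SHR were higher for 6 of 9 (median 0.38) with them and for 9 of 9 (median 0.79) without them. In bulk tissue, fewer cells of a type and less RNA per cell cannot be told apart.

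**Figure D1:**
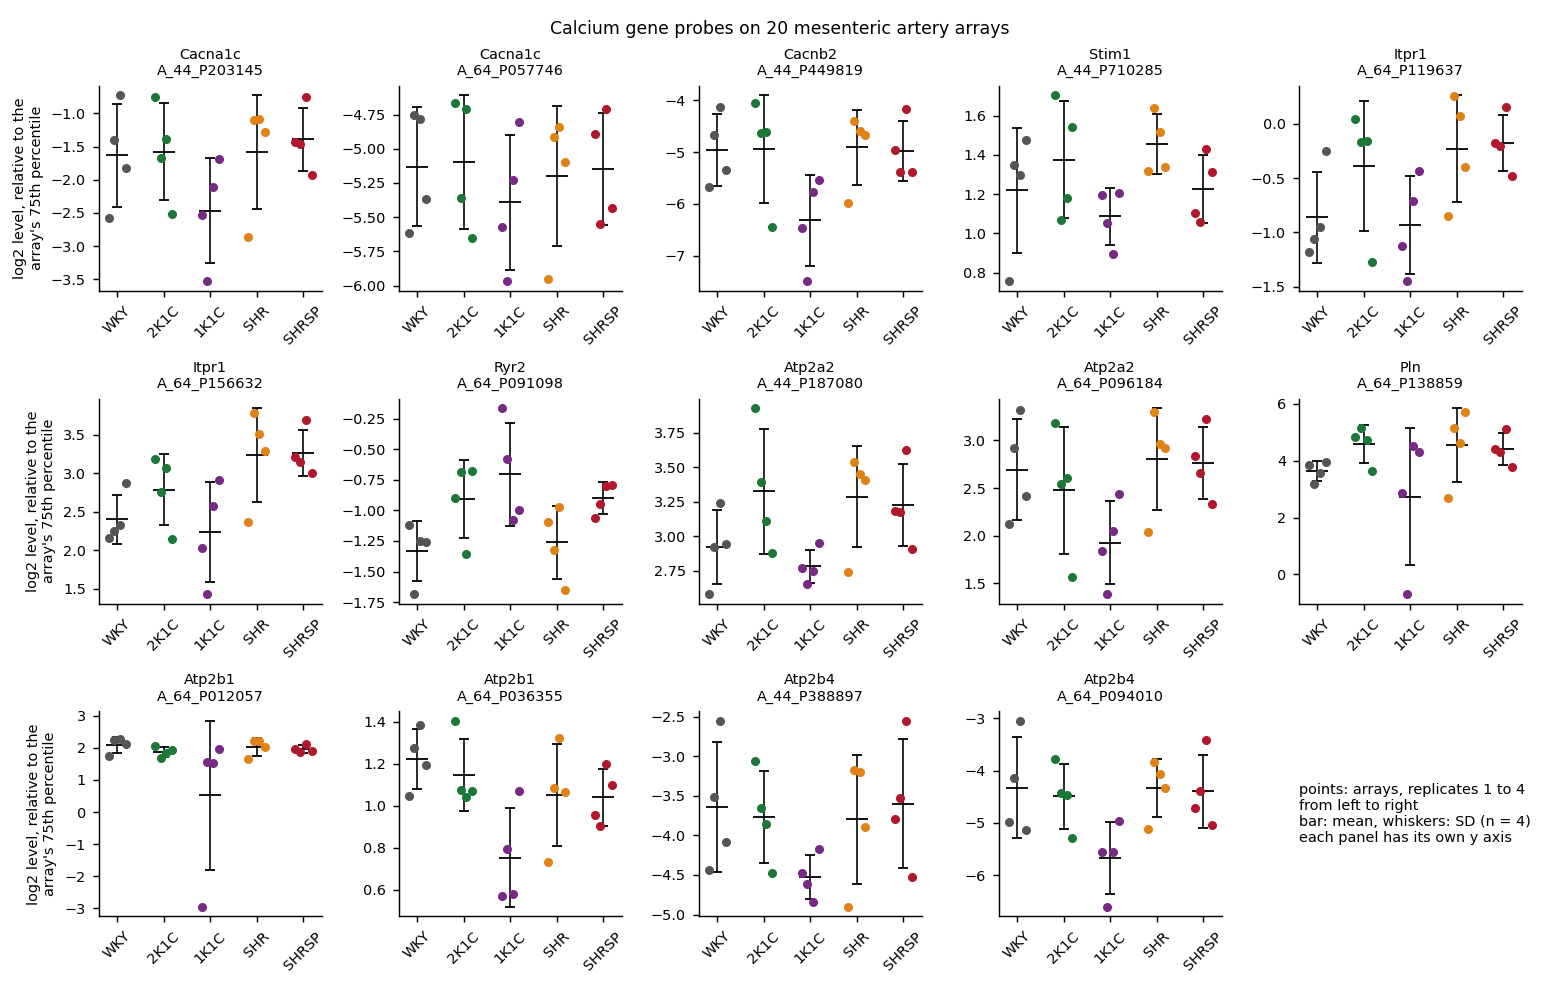
Log2 level of the 14 tested calcium probes on each of the 20 arrays, scaled to the 75th percentile of the array; bars and whiskers are the mean and SD of 4 arrays a group, and each panel has its own y axis. The groups overlap in most panels, and 1K1C holds the lowest single array of Pln (-0.70), Cacna1c (-3.53) and Cacnb2 (-7.49).

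Of the genes for calcium entry, Cacna1c encodes the pore of the L-type channel Cav1.2, the main voltage-gated route into vascular smooth muscle. Its probe A_44_P203145, printed on 10 spots of each array, read -2.57, -1.40, -0.72 and -1.82 on the untreated WKY arrays, -0.75, -1.67, -1.38 and -2.51 on the 2K1C arrays, -2.53, -3.53, -2.11 and -1.69 on the 1K1C arrays, -2.86, -1.10, -1.09 and -1.29 on the SHR arrays, and -1.43, -1.46, -0.76 and -1.92 on the SHRSP arrays. Within every group except SHRSP the arrays spread over more than 1.7 log2 units, while the SD between the 10 spots of an array had a median of 0.063. Untreated WKY, 2K1C, SHR and SHRSP overlapped throughout, and 1K1C replicate 2 was the lowest of the 20 arrays. The 1K1C difference from untreated WKY was -0.84 ± 0.49 (SE, n = 4 against 4), with a 95% interval of -1.86 to 0.19 and a limma adjusted p of 0.636. In SHR the difference was 0.05 ± 0.49, with an interval of -0.98 to 1.07, about 1 log2 unit to either side. These differences were -0.48 ± 0.42 and 0.47 ± 0.42 without 1K1C replicate 2 and SHR replicate 1. A second Cacna1c probe, A_64_P057746, was well above background on 15 of 20 arrays, and its 1K1C difference was -0.26 ± 0.32. That difference was -0.07 ± 0.29 without the 2 arrays.

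Cacnb2 encodes an auxiliary beta subunit that helps the L-type pore reach the membrane. Its single probe was well above background on 13 of 20 arrays: 3 of 4 in untreated WKY, 3 of 4 in 2K1C, 0 of 4 in 1K1C, 3 of 4 in SHR and 4 of 4 in SHRSP. The levels were -5.68, -4.66, -4.13 and -5.34 on the untreated WKY arrays, -4.05, -4.64, -4.62 and -6.44 on the 2K1C arrays, -6.47, -7.49, -5.76 and -5.54 on the 1K1C arrays, -5.97, -4.40, -4.59 and -4.66 on the SHR arrays, and -4.95, -5.39, -4.16 and -5.39 on the SHRSP arrays. The 1K1C arrays reached down to -7.49 and up to -5.54, and they overlapped untreated WKY, whose lowest array was at -5.68. Since no 1K1C array detected the probe, the difference of the measured means has a bound. The measured mean of Cacnb2 was at least 1.69-fold brighter in untreated WKY and at least 1.71-fold brighter in 2K1C. These bounds leave out the spread between arrays. In each brighter group 3 of 4 arrays detected the probe, so its mean includes a reading not above background, and the bounds are not bounds on expression. The measured 1K1C differences had 95% intervals of -2.471 to -0.258 and -2.488 to -0.275. For these bounds, the level of each 1K1C array was raised to that of its dimmest detected probe wherever Cacnb2 read lower. The limma adjusted p was 0.42 against untreated WKY and 0.145 against 2K1C, so neither passed. Without 1K1C replicate 2, the lowest array, the measured 1K1C differences were -0.972 ± 0.525 from untreated WKY and -0.99 ± 0.525 from 2K1C. Their limma adjusted p-values were 0.791 and 0.47. In SHR, SHRSP and 2K1C the measured differences from untreated WKY were 0.05 ± 0.53, -0.02 ± 0.53 and 0.02 ± 0.53. Without SHR replicate 1, which did not detect the probe, the SHR difference was 0.40 ± 0.54.

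Cacna1d encodes Cav1.3, an L-type pore known from pacemaker and endocrine cells. Its probe was well above background on 0 of 20 arrays, with levels between -7.51 and -5.63, and it was not tested. Nothing is said of a difference for this gene.

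Stim1 encodes the sensor in the store membrane that opens entry channels when the store empties. Its levels were 0.75, 1.35, 1.30 and 1.48 on the untreated WKY arrays, 1.70, 1.07, 1.18 and 1.54 on the 2K1C arrays, 1.20, 1.05, 0.89 and 1.20 on the 1K1C arrays, 1.32, 1.64, 1.52 and 1.34 on the SHR arrays, and 1.11, 1.06, 1.43 and 1.31 on the SHRSP arrays. All 5 groups overlapped and every array lay between 0.75 and 1.70. The differences from untreated WKY were 0.24 ± 0.17 in SHR, 0.01 ± 0.17 in SHRSP, 0.16 ± 0.17 in 2K1C and -0.13 ± 0.17 in 1K1C, with limma adjusted p-values of 0.579, 0.988, 0.588 and 0.798. Its intervals were among the narrower ones: the SHRSP difference had an interval of -0.35 to 0.36.

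Of the store and release genes, Itpr1 encodes the type 1 inositol trisphosphate receptor, through which hormones and nerve transmitters release stored calcium. Its probe A_64_P156632 read 2.16, 2.25, 2.32 and 2.87 on the untreated WKY arrays, 3.18, 2.76, 3.07 and 2.15 on the 2K1C arrays, 2.03, 1.43, 2.58 and 2.91 on the 1K1C arrays, 2.37, 3.78, 3.50 and 3.29 on the SHR arrays, and 3.21, 3.15, 3.68 and 3.00 on the SHRSP arrays. All 4 SHRSP arrays lay above all 4 untreated WKY arrays, while in SHR replicate 1 fell among the WKY values and the other three lay above them. The difference was 0.86 ± 0.33 in SHRSP (95% interval 0.17 to 1.55, limma adjusted p = 0.193, exact permutation p = 0.0286, the smallest that 4 against 4 can give) and 0.83 ± 0.33 in SHR (interval 0.14 to 1.52, adjusted p = 0.246). Neither passed over all probes. The groups did not overlap for 2 of 14 calcium probes in SHRSP against untreated WKY, this one and Ryr2, where 11.4% of all probes did not. In SHR, 2K1C and SHRSP against SHR, and in 1K1C against 2K1C, the groups overlapped for all 14, beside 6.16%, 7.91%, 3.49% and 9.55% of all probes with no overlap.

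The second Itpr1 probe, A_64_P119637, lies 1267 bases away and read -1.18, -1.06, -0.95 and -0.25 on the untreated WKY arrays, 0.04, -0.17, -0.16 and -1.27 on the 2K1C arrays, -1.13, -1.45, -0.71 and -0.43 on the 1K1C arrays, -0.84, 0.26, 0.07 and -0.40 on the SHR arrays, and -0.18, -0.21, 0.16 and -0.48 on the SHRSP arrays. It gave 0.68 ± 0.31 in SHRSP and 0.63 ± 0.31 in SHR, so both probes put both strains above untreated WKY, with adjusted p-values of 0.272 and 0.374. Its SHRSP arrays overlapped untreated WKY through WKY replicate 4, at -0.25. SHRSP and SHR differed by 0.03 and 0.05 in the 2 probes, with intervals of -0.66 to 0.72 and -0.59 to 0.70. Without SHR replicate 1 and 1K1C replicate 2, the SHR difference of A_64_P156632 was 1.12 and passed, with a limma adjusted p of 0.0281. Without SHR replicate 1 alone it was 1.12 with an adjusted p of 0.0562. The 2 arrays were chosen after the data were seen, for a low smooth muscle marker mean, which this probe follows (r = 0.81). SHR replicate 1 was also its lowest SHR array, so leaving it out raises the SHR mean, and the pass depends on that choice.

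Ryr2 encodes a ryanodine receptor, the release channel that answers calcium with more calcium and is best known from heart muscle. The probe A_64_P091098, the detected one of the pair printed above, read -1.12, -1.69, -1.25 and -1.26 on the untreated WKY arrays, -0.90, -0.68, -1.36 and -0.68 on the 2K1C arrays, -0.16, -0.58, -1.07 and -0.995 on the 1K1C arrays, -1.10, -1.32, -0.97 and -1.65 on the SHR arrays, and -1.06, -0.95, -0.80 and -0.79 on the SHRSP arrays. All 4 untreated WKY arrays lay below all 4 arrays of 1K1C and of SHRSP, whereas they overlapped 2K1C and SHR. It was the one calcium probe of 14 that lay higher in 1K1C than in untreated WKY, by 0.63 ± 0.21 (95% interval 0.19 to 1.07, limma adjusted p = 0.308, exact permutation p = 0.0286). Groups did not overlap in that comparison for 1 of 14 calcium probes and for 3.75% of all probes. The differences were 0.43 ± 0.21 in SHRSP, 0.43 ± 0.21 in 2K1C and 0.07 ± 0.21 in SHR, and none passed.

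The adjoining Ryr2 probe, A_64_P000023, was well above background on 3 of 20 arrays, 2 of SHRSP and 1 of 2K1C. Its levels ran from -7.94 to -5.16, and it was not tested. The array lists it under another Ryr2 transcript than the detected probe. The higher 1K1C reading of Ryr2 therefore rests on 1 probe, with no second detected probe beside it.

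Of the store pump and its brake, Atp2a2 encodes SERCA2, which returns calcium to the store. Its probe A_44_P187080, on 10 spots, read 2.58, 2.92, 3.24 and 2.94 on the untreated WKY arrays, 3.93, 3.39, 3.11 and 2.88 on the 2K1C arrays, 2.77, 2.66, 2.75 and 2.95 on the 1K1C arrays, 2.74, 3.54, 3.45 and 3.41 on the SHR arrays, and 3.19, 3.18, 3.63 and 2.91 on the SHRSP arrays. The 4 arrays of 1K1C stayed within 0.30 log2 units of each other, between 2.66 and 2.95, while 2K1C spread from 2.88 to 3.93. The difference of 1K1C from 2K1C was -0.54 ± 0.22 (interval -1.01 to -0.08, limma adjusted p = 0.172), and from untreated WKY it was -0.14 ± 0.22. The second probe, A_64_P096184, lies 3082 bases away on rn4 and gave -0.55 ± 0.35 and -0.77 ± 0.35 for the same comparisons. The first of these was -0.37 ± 0.34 without 1K1C replicate 2 and SHR replicate 1. For 2K1C against untreated WKY the 2 probes of Atp2a2 had opposite signs, 0.40 ± 0.22 and -0.22 ± 0.35, and neither passed. The array lists these 2 probes under different transcripts of the gene, so they need not read the same RNA.

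Pln encodes phospholamban, the small membrane protein that holds SERCA back until it is phosphorylated. Its levels were 3.84, 3.18, 3.55 and 3.95 on the untreated WKY arrays, 4.82, 5.14, 4.74 and 3.62 on the 2K1C arrays, 2.85, -0.70, 4.50 and 4.29 on the 1K1C arrays, 2.70, 5.13, 4.63 and 5.72 on the SHR arrays, and 4.40, 4.31, 5.12 and 3.77 on the SHRSP arrays. It had the widest spread of the 14 probes, and 1K1C replicate 2, at -0.70, lay more than 3 log2 units below every other array. The 1K1C difference was -0.89 ± 0.85 against untreated WKY (limma adjusted p = 0.731) and -1.84 ± 0.85 against 2K1C (adjusted p = 0.222). Without 1K1C replicate 2 the sign turned against untreated WKY, to 0.25 ± 0.58, and the difference from 2K1C was -0.70 ± 0.58. In SHR, SHRSP and 2K1C the means lay above untreated WKY by 0.91 ± 0.85, 0.77 ± 0.85 and 0.95 ± 0.85. Without SHR replicate 1 and 1K1C replicate 2, the SHR difference of Pln was 1.53, with a limma adjusted p of 0.0497. These arrays were chosen after the data were seen, for a low smooth muscle marker mean, which Pln follows (r = 0.95). SHR replicate 1 was the lowest SHR array of Pln, so this value too depends on that choice.

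**Figure D2:**
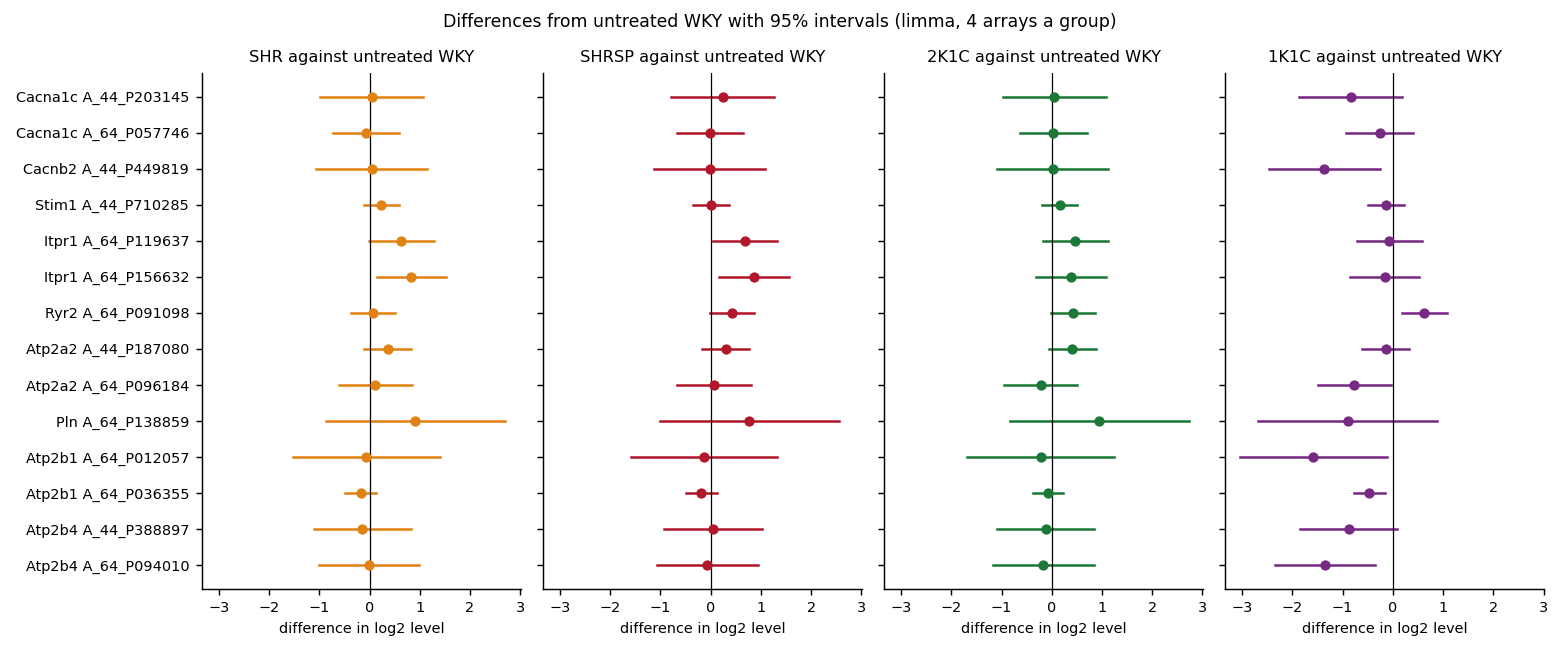
Difference of each group from untreated WKY in the log2 level of 14 calcium probes (points) with its 95% interval (lines), from the limma fit over 20 arrays. In SHR and SHRSP both Itpr1 probes lie to the right of 0, and in 1K1C every probe but Ryr2 lies to the left, with no probe passing the adjusted test in any panel.

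Of the pumps in the plasma membrane, Atp2b1 encodes PMCA1, the form found in nearly all cells. Its probe A_64_P036355, on a single spot, read 1.04, 1.27, 1.39 and 1.20 on the untreated WKY arrays, 1.41, 1.07, 1.04 and 1.07 on the 2K1C arrays, 0.57, 0.79, 0.58 and 1.07 on the 1K1C arrays, 0.73, 1.08, 1.32 and 1.06 on the SHR arrays, and 0.95, 0.90, 1.20 and 1.10 on the SHRSP arrays. The 1K1C arrays lay between 0.57 and 1.07, and untreated WKY between 1.04 and 1.39, so that they overlapped through 1K1C replicate 4. The difference was -0.47 ± 0.15 against untreated WKY (95% interval -0.78 to -0.17, unadjusted p = 0.00459, limma adjusted p = 0.272) and -0.40 ± 0.15 against 2K1C (adjusted p = 0.135). Without 1K1C replicate 4 the difference from 2K1C was -0.50, with an adjusted p of 0.0392.

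The other Atp2b1 probe, A_64_P012057, lies 190 bases away and is printed on 2 spots. It read 1.75, 2.24, 2.29 and 2.12 on the untreated WKY arrays, 2.05, 1.68, 1.85 and 1.94 on the 2K1C arrays, -2.97, 1.57, 1.52 and 1.96 on the 1K1C arrays, 1.65, 2.21, 2.23 and 2.04 on the SHR arrays, and 1.96, 1.88, 2.13 and 1.91 on the SHRSP arrays. One array set its 1K1C mean: 1K1C replicate 1, at -2.97, lay more than 4 log2 units below the other 19. There 1 of the 2 spots had a log2 signal of 10.75 and the other 1.64, and neither carried an outlier flag. On that array 9 of 15840 probes with 2 spots disagreed by over 3 log2 units with the brighter spot above the 75th percentile, and the dim spots all lay in rows 339 to 359 and columns 1 to 6 of the array. The other 19 arrays had 1 such probe between them. With the brighter spot kept, the level of 1K1C replicate 1 was 1.59 and the 1K1C difference from untreated WKY was -0.45 ± 0.15 (limma adjusted p = 0.336), in place of -1.58 ± 0.69 (adjusted p = 0.514). The 2 probes of Atp2b1 then gave -0.45 and -0.47.

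**Figure D3:**
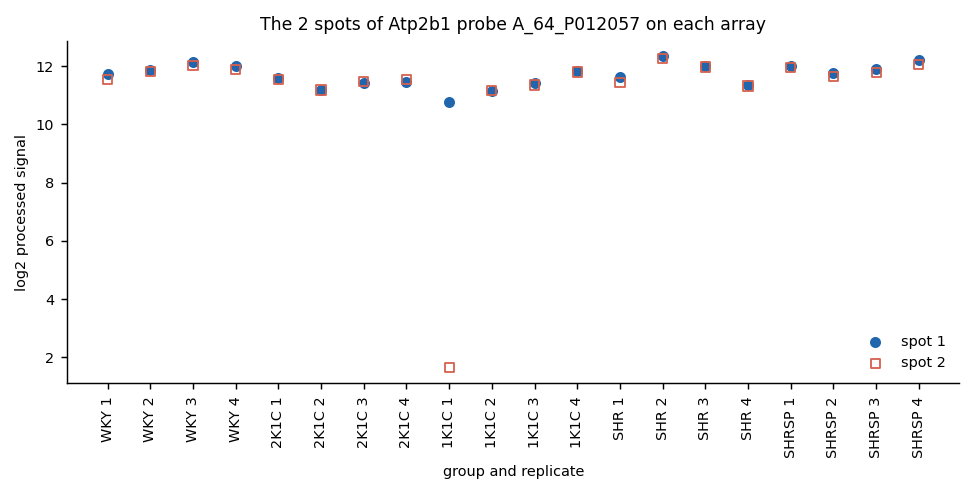
Log2 processed signal of the 2 spots of Atp2b1 probe A_64_P012057 on each of 20 arrays, before scaling. The spots overlie each other on every array but 1K1C replicate 1, where they read 10.75 and 1.64.

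Atp2b4 encodes PMCA4, a plasma membrane pump present in smooth muscle. Its probe A_44_P388897 read -4.43, -3.51, -2.55 and -4.08 on the untreated WKY arrays, -3.06, -3.66, -3.86 and -4.48 on the 2K1C arrays, -4.47, -4.62, -4.84 and -4.17 on the 1K1C arrays, -4.91, -3.17, -3.19 and -3.90 on the SHR arrays, and -3.79, -3.53, -2.55 and -4.52 on the SHRSP arrays. Its probe A_64_P094010 lies 4048 bases away, was well above background on 18 of 20 arrays (2 of 4 in 1K1C) and read -4.99, -4.13, -3.05 and -5.13 on the untreated WKY arrays, -3.77, -4.43, -4.47 and -5.30 on the 2K1C arrays, -5.56, -6.62, -5.57 and -4.96 on the 1K1C arrays, -5.11, -3.83, -4.06 and -4.33 on the SHR arrays, and -4.72, -4.38, -3.42 and -5.04 on the SHRSP arrays. In both probes the 1K1C arrays lay at the low end and overlapped each other group. The 1K1C difference from untreated WKY was -0.88 ± 0.46 and -1.35 ± 0.47, with limma adjusted p-values of 0.594 and 0.352. In SHR, SHRSP and 2K1C the differences of both probes lay between -0.17 and 0.05, with intervals reaching about 1 log2 unit to either side. The SHR values rest on SHR replicate 1: without it they were 0.22 ± 0.45 and 0.25 ± 0.50, in place of -0.15 ± 0.46 and -0.01 ± 0.47.

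The levels of most calcium genes followed the mean of the 9 smooth muscle markers from array to array. Across the 20 arrays, Pearson's r was 0.95 for Pln, 0.91 for Cacnb2 and 0.90 for the 10-spot probe of Cacna1c, with Spearman's rho of 0.89, 0.86 and 0.88. Each of these 6 values had a two-sided permutation p of 1e-05, the smallest that 100000 resamples can give, and an adjusted p of 2.8e-05 for r and 3.5e-05 for rho over the 14 relations computed. Without 1K1C replicate 2 and SHR replicate 1, the arrays farthest from the median, r was 0.85, 0.88 and 0.85. With each group's mean removed it was 0.94, 0.90 and 0.89. Within slide 2 (8 arrays) r was 0.93, 0.89 and 0.88, and within slide 3 (8 arrays) 0.97, 0.93 and 0.96. Slide 1 held 4 arrays of 1 group, too few for a value.

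Itpr1 gave r of 0.81 and 0.76, Atp2a2 0.77 and 0.82, and Atp2b4 0.67 and 0.82, with rho of 0.79 and 0.81, 0.93 and 0.83, and 0.77 and 0.81. Adjusted permutation p-values of these r lay between 2.8e-05 and 0.000952. Without the same 2 arrays these 6 values lay between 0.70 and 0.88. The second Cacna1c probe gave 0.76 (rho 0.76). Atp2b1 gave 0.35 and 0.56 (rho 0.52 and 0.53). Its adjusted permutation p-values were 0.0637 and 0.0132. The first of these holds the value of the disagreeing spots on 1K1C replicate 1, and with the brighter spot kept r was 0.57 (rho 0.51). Stim1 and Ryr2 were not shown to follow the markers: r was 0.34 for Stim1 (rho 0.33, adjusted permutation p = 0.145) and -0.40 for Ryr2 (rho -0.24, adjusted permutation p = 0.0897). All values of an array share its RNA and its scaling. The permutations shuffled the 20 arrays without regard to group or slide. How many of all probes follow the markers as closely was not computed, so the calcium genes are not shown to stand out from other genes.

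**Figure D4:**
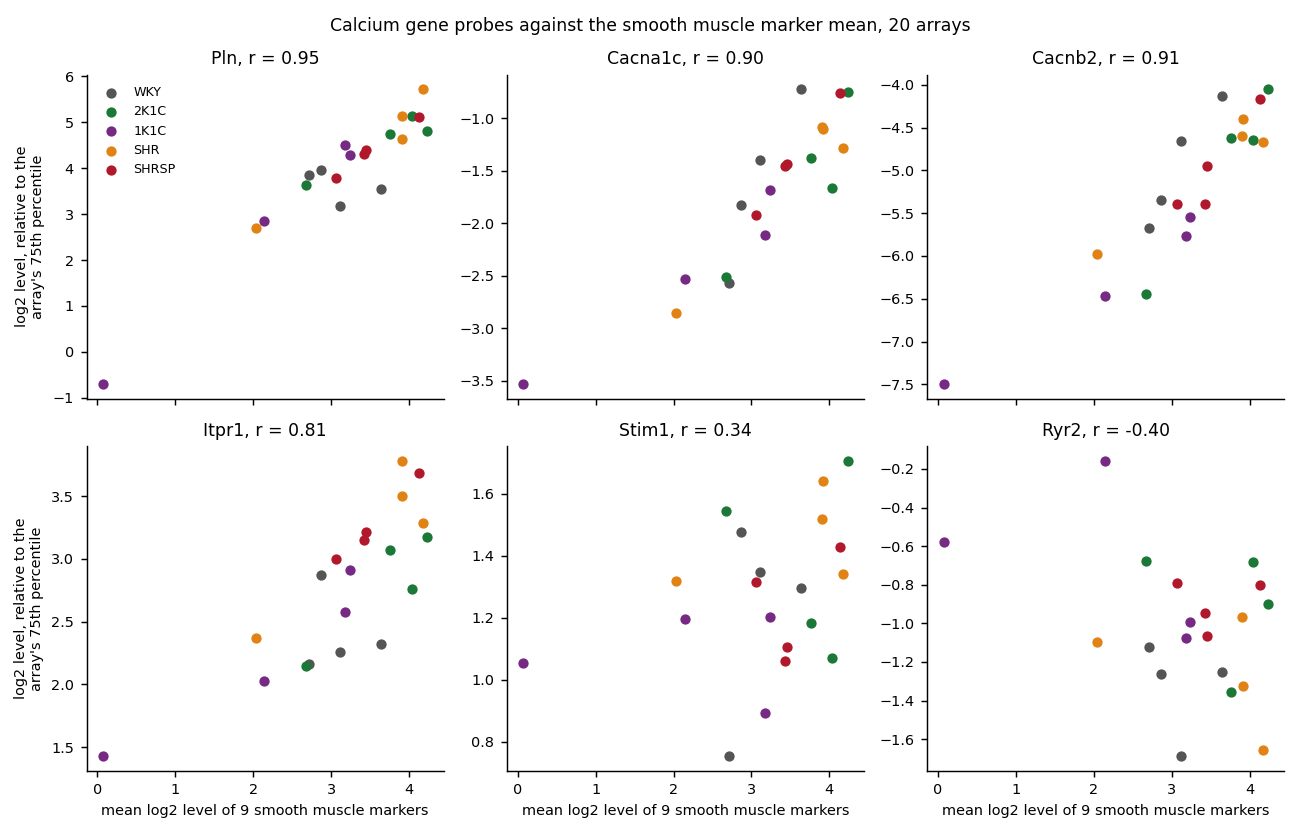
Log2 level of 6 calcium gene probes (y axes differ) against the mean log2 level of 9 smooth muscle markers, each point 1 of 20 arrays coloured by group. Pln, Cacna1c, Cacnb2 and Itpr1 climb with the marker mean in arrays of all groups, with 1K1C replicate 2 at the lower left, while Stim1 and Ryr2 scatter.

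The genes whose log2 levels were most like those of each calcium gene over the 20 arrays, by Pearson's r with the gene's brightest tested probe, were drawn from the other probes tested. For Pln they were Tagln (0.99), Acta1 (0.97) and Csrp1 (0.96), of which Tagln is itself one of the 9 markers and encodes transgelin, an actin-binding protein of smooth muscle. For Cacna1c they were Kctd15, Ppp1r12c and Bves (0.96, 0.96 and 0.95). For Cacnb2 they were Ppp1r12c, Smtn and Myh11 (0.96, 0.95 and 0.94), the last encoding smooth muscle myosin heavy chain. Ppp1r12c thus stood near both parts of the L-type channel, whose own probes correlated at 0.95.

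For Itpr1 the nearest genes were Sparcl1, Ntrk3 and Casq1 (0.97, 0.96 and 0.95), and for Atp2a2 Cdc42bpa, Tead3 and Rassf3 (0.94, 0.94 and 0.93). For Atp2b4 the nearest was Slc8a1 (0.90), the sodium-calcium exchanger that also clears calcium from the cell, followed by Fbxo32 (0.89) and Hdgfl3 (0.88). For Stim1 they included Tfcp2 and Tnrc6b (0.86 and 0.82). For Ryr2 they were Prlhr, Zfp112 and Fam90a1a (0.96, 0.96 and 0.90), none of them a marker on the smooth muscle list. For Atp2b1 the brightest probe is the one with the disagreeing spots, and its nearest genes rested on them: Ubap1, Chtf8 and Scaf4 had r of 0.965, 0.954 and 0.953 as measured, and -0.13, 0.33 and 0.46 with the brighter of 2 disagreeing spots kept.

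Beyond the 10 genes, 4 lists of other calcium genes held 68 tested genes: 25 for entry, 16 for stores, 9 for pumps and exchangers and 18 for sensing and contraction. In SHR against untreated WKY 0 were higher and 1 was lower by the limma test, where 1.72% of all probes were called. In SHRSP 1 was higher and 1 was lower, where 2.4% of all probes were called. These counts of the 68 lie near the shares of all probes. In the other 4 comparisons 0 of 68 passed. At an unadjusted p under 0.05 stood 14 in SHR (20.6%, beside 13.9% of all probes), 20 in SHRSP (29.4% beside 16.8%), 13 in 2K1C (19.1% beside 21.9%), 13 in 1K1C (19.1% beside 9.03%), 1 in SHRSP against SHR (1.47% beside 3.61%) and 15 in 1K1C against 2K1C (22.1% beside 21.1%). The median difference of the 68 was between -0.11 and 0.10 except in 1K1C against 2K1C, where it was -0.41. By list, the store genes had the lowest median there, -0.77, with 13 of 16 lower, where 48.6% of all probes were. Without 1K1C replicate 2 and SHR replicate 1 these medians were -0.27 for the 68 and -0.49 for the store genes, again with 13 of 16 lower. Without the same 2 arrays 7 of the 68 passed in SHR, where 5.53% of all probes did: Atp2b3 was lower, and Pkd2, Casq1, Hrc, P2rx1, Trdn and Trpc6 were higher, by 0.66 to 3.38 log2 units. In SHRSP 3 then passed, Atp2b3, Pkd2 and Casq1, where 3.58% of all probes did. The 2 arrays were chosen after the data were seen.

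Atp2b3, a plasma membrane calcium pump best known from nerve, was the gene called lower in both inherited forms. Its levels were -0.23, -1.08, -0.59 and -1.20 on the untreated WKY arrays, -0.89, -1.25, -1.31 and -0.53 on the 2K1C arrays, -1.23, -1.26, -1.92 and -1.39 on the 1K1C arrays, -2.39, -1.86, -1.71 and -2.45 on the SHR arrays, and -1.73, -2.10, -2.12 and -1.70 on the SHRSP arrays. All 4 SHR and all 4 SHRSP arrays lay below all 4 untreated WKY arrays. So did all 4 1K1C arrays, by a small margin: the highest was at -1.225 and the lowest untreated WKY array at -1.202. The separation from untreated WKY was thus not particular to the inherited forms. It was lower by -1.33 ± 0.24 in SHR (limma adjusted p = 0.00634) and by -1.14 ± 0.24 in SHRSP (adjusted p = 0.0168), both differences signed as strain minus WKY. The SHR call was lost with the unscaled values (adjusted p = 0.0545) and in a fit of those 2 groups alone (adjusted p = 0.0998), and the SHRSP call at adjusted p-values of 0.143 and 0.0693. Leaving out single arrays ended the SHRSP call for WKY replicates 1 and 3 and SHRSP replicates 2 and 3 (adjusted p = 0.0522, 0.0659, 0.06 and 0.0657).

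Nerve markers lay the same way. The mean of the 7 tested neuron markers was 4.05, 0.09, 0.76 and -1.55 on the untreated WKY arrays, 1.21, -1.58, -1.61 and -2.33 on the 2K1C arrays, -2.04, -2.55, -1.86 and -1.95 on the 1K1C arrays, -2.74, -1.76, -1.48 and -1.61 on the SHR arrays, and -2.07, -2.06, -1.95 and -2.40 on the SHRSP arrays. It was higher on all 4 untreated WKY arrays than on any SHRSP or 1K1C array, with means of -2.12 in SHRSP and -2.10 in 1K1C against 0.84 in untreated WKY, and overlapped SHR through WKY replicate 4 and SHR replicate 3. Of those markers, Gap43, Prph and Rbfox1 were called lower in SHRSP and the first and second of them in SHR, with differences of -3.82 to -2.97 log2 units. The part of nerve RNA in the Atp2b3 result was not tested.

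Pkd2 encodes polycystin-2, a cation channel of membranes and the store. Its levels were -2.85, -3.04, -2.96 and -2.79 on the untreated WKY arrays, -2.15, -2.03, -1.85 and -3.14 on the 2K1C arrays, -2.86, -3.57, -2.34 and -2.07 on the 1K1C arrays, -2.46, -1.28, -1.40 and -1.78 on the SHR arrays, and -1.33, -1.75, -1.39 and -1.74 on the SHRSP arrays. The 4 untreated WKY arrays spanned 0.25 log2 units, and every SHRSP and every SHR array lay above them all. So did 2K1C replicates 1, 2 and 3 and 1K1C replicates 3 and 4. Readings above untreated WKY were thus not particular to the inherited forms. Pkd2 was higher by 1.36 ± 0.32 in SHRSP (limma adjusted p = 0.0287), while in SHR it was higher by 1.18 ± 0.32 and did not pass (adjusted p = 0.0677). Without SHR replicate 1 the SHR difference was 1.43 and passed (adjusted p = 0.0225), as it did at 1.18 without 1K1C replicate 2 (adjusted p = 0.0406). The SHRSP call of Pkd2 was lost without any single SHRSP array or without WKY replicate 1, 2 or 3, at adjusted p-values of 0.0502 to 0.0937, and with the unscaled values (adjusted p = 0.0572).

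Where no gene of the wider lists was called, the 2 with the largest differences are given. In 2K1C against untreated WKY they were P2rx1, the ATP-gated channel of smooth muscle, at 2.74 ± 1.16 (limma adjusted p = 0.19), and Trdn, which encodes triadin of the store membrane, at 2.72 ± 1.13 (adjusted p = 0.183). In 1K1C against untreated WKY they were Atp2b2, another plasma membrane pump, at -2.99 ± 0.70 (adjusted p = 0.2), and Tmem38a at -1.65 ± 0.52 (adjusted p = 0.276). For Atp2b2 all 4 1K1C arrays (-8.25 to -4.37) lay below all 4 untreated WKY arrays (-4.06 to -1.003), and 1K1C replicate 2, which did not detect the probe, was again the lowest. The neuron marker mean given above was likewise lower on all 4 1K1C arrays than on any untreated WKY array, and its part in the Atp2b2 value was not tested. Of the 1K1C arrays, 3 of 4 detected Atp2b2, 3 of 4 P2rx1 and 2 of 4 Tmem38a, and 3 of 4 untreated WKY arrays detected Tmem38a and Trdn, so that these differences include readings not above background. In SHRSP against SHR they were Casq2, the calcium-binding protein calsequestrin, at 1.11 ± 0.76 and Atp2a1 at 1.06 ± 0.59, both with an adjusted p of 1. In 1K1C against 2K1C they were P2rx1 at -2.06 ± 1.16 (adjusted p = 0.318) and Atp2b2 at -2.01 ± 0.70 (adjusted p = 0.12). Without 1K1C replicate 2 the 1K1C difference of Atp2b2 was -2.18 from untreated WKY and -1.20 from 2K1C, and that of P2rx1 from 2K1C was -0.72. Without SHR replicate 1 Casq2 differed by 0.51. Without WKY replicate 4 Atp2b2 and Tmem38a passed in 1K1C against untreated WKY, at -3.40 and -2.25 (limma adjusted p = 0.0274 and 0.0102).

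**Figure D5:**
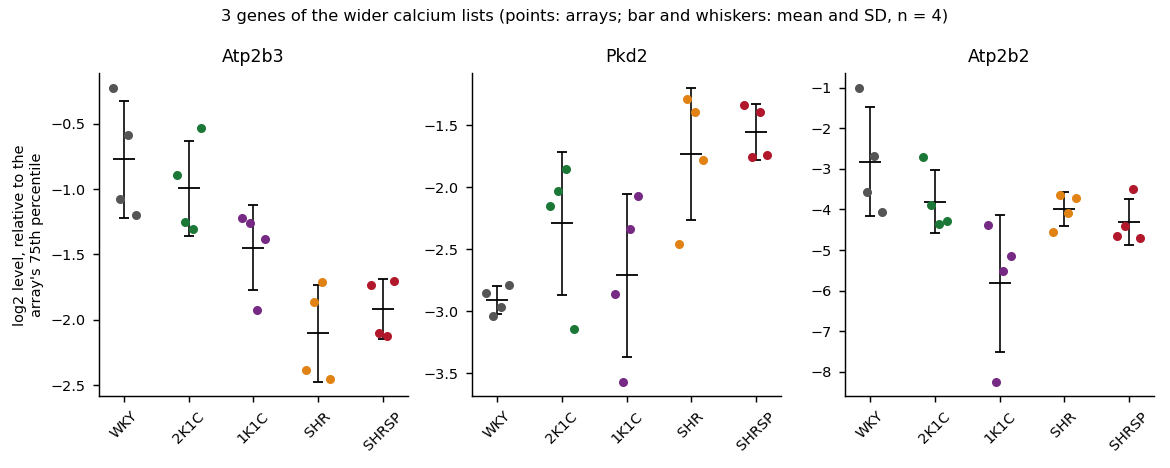
Log2 level of Atp2b3, Pkd2 and Atp2b2 on each array, scaled to the 75th percentile of the array; bars and whiskers are the mean and SD of 4 arrays a group. Atp2b3 is lower on all SHR, SHRSP and 1K1C arrays than on all untreated WKY arrays. Pkd2 is higher on all SHR and SHRSP arrays than on all untreated WKY arrays, and Atp2b2 is lowest on 1K1C replicate 2 (-8.25).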

How the data were processed

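Total RNA of 20 mesenteric artery samples was labelled with Cy3 and read on single-colour arrays, per the labels. Spot intensity came from the authors' use of Agilent Feature Extraction, version 10.7.3.1, as the submitters' processing notes list. Per the file headers it is a linear signal with the background taken off and no scaling between arrays, and the deposited value table held the same intensity for every spot. Here it was scaled to the 75th percentile of each array's non-control spots and put on the log2 scale. Control spots were dropped together with 301 to 684 outlier-flagged spots an array, and spots of a probe were averaged. Gene names, probe sequences and rn4 positions are those of the array files.

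Probes marked well above background throughout 1 or more groups were tested. All 20 arrays entered one fit by group in limma (version 3.58.1, R 4.3.3; lmFit and eBayes; prior degrees of freedom 2.62), with two-sided contrasts and Benjamini-Hochberg adjustment over 18899 probes. Exact permutation p-values enumerate the 70 splits of 4 against 4. The fit was tested on simulated data. Named are all members with every probe, the called genes of 4 wider calcium lists or else the 2 with the largest difference (brightest probe of each gene), and the 3 probes most correlated with each member (1 of those of Stim1 is not reported here). Members and lists were chosen with earlier results of these data known. Numbers of array replicates limit the precision. Alternatives covered normalization, background filters, 1 probe per gene, fits of the compared groups alone, array weights, a replicate block, outlier spots kept, each array left out and, chosen after the data were seen, the brighter of 2 disagreeing spots and the 2 arrays of lowest smooth muscle marker mean left out.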

Additional observations from a re-analysis of the deposited data

Results flagged for a closer look

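Of 70 sets of 4 arrays (14 calcium probes in 5 groups), 6 had an array standing far from the other three of its group. Chance gives about 1 in 20, and arrays of a probe pair are not independent. SHR replicate 1 was the lowest of its group for Cacna1c (-2.86), Cacnb2 (-5.97) and the 10-spot probe of Atp2a2 (2.74), and it had the second lowest smooth muscle marker mean of all 20 arrays, 2.04. The Atp2b1 probe with 2 spots stood at -2.97 on 1K1C replicate 1, where its spots disagreed. The other Atp2b1 probe was highest on 2K1C replicate 1, at 1.41, and the Itpr1 probe A_64_P119637 was lowest on 2K1C replicate 4, at -1.27.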

How the results depend on the processing

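With array weights, which ran from 0.245 to 4.93, the count of calcium probes called became 4 in SHR, 4 in SHRSP, 2 in 2K1C and 4 in 1K1C (all set against WKY) and 1 in SHRSP against SHR, while all probes called were 8689, 6396, 5678, 558 and 968. Without the 2 arrays of lowest smooth muscle marker mean it was 2 in SHR (Itpr1 and Pln), and leaving out single arrays gave 0 to 1 in 1K1C against 2K1C (Atp2b1, without 1K1C replicate 4) and 0 elsewhere. Every other alternative run gave 0. The difference of Pln in 1K1C against untreated WKY changed sign, to 0.25, without 1K1C replicate 2 and without those 2 arrays, where single arrays left out gave -1.48 to 0.25. No other calcium difference larger than its SE changed sign. The replicate block called 0 of 14 in each comparison, and same-numbered arrays did not deviate together throughout (correlations of -0.369 to 0.567), so the numbers were not taken to pair the arrays.

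The counts over all probes were less stable. For SHR against untreated WKY (325) they were 117 for the compared groups alone, 144 unscaled, 203 for probes detected on all arrays, 148 to 755 with single arrays left out and 1046 without the 2 arrays. For SHRSP (454) they were 184, 241 unscaled and 201 to 1034 with single arrays left out. For 2K1C (2) they were 0 under 5 settings, 75 with normexp, 219 without the 2 arrays and 0 to 975 with single arrays left out. For 1K1C (0) they were 2 to 8 under 4 settings and 0 to 241, for SHRSP against SHR (68) 34 for probes detected on all arrays, and for 1K1C against 2K1C (0) up to 2030 without 1K1C replicate 4, 1113 without SHR replicate 1 and 314 without 2K1C replicate 3. Scaling to the median moved the higher share of calls from 44.9% to 64.7% in SHR, and from 61.8% to 49.3% in SHRSP against SHR. Unscaled values moved it from 49.3% to 69.3% in SHRSP. Scaling to the median moved the median of all probes from 0.02 to 0.12 in SHR. Unscaled values moved it from 0.00 to 0.17 in SHRSP, 0.04 to -0.19 in 2K1C, 0.10 to -0.06 in 1K1C and -0.01 to 0.17 in SHRSP against SHR. Cacna1d, the second Ryr2 probe, Cacnb2, Atp2b2, P2rx1 and Tmem38a in 1K1C, and Tmem38a and Trdn in untreated WKY are limited by signal over background.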
